A study of Sus scrofa and Rattus norvegicus with 8 samples.

Results

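The core circadian clock genes were followed in pig subcutaneous fat, as a panel of 10 symbols: ARNTL (written BMAL1 in the pig name table), CLOCK, PER1, PER2, PER3, CRY1, CRY2, NR1D1, NR1D2 and DBP. They were chosen by symbol, and 9 of the 10 had an Ensembl ID among the 14857 named IDs of the 25880 in the pig table. PER3 had no ID and so has no value here. The values came from 6 libraries of the upper layer of backfat of female Bama pigs, a miniature breed, adult and 2 years of age, with no treatment and no second group. A further 2 rat libraries of the series were not used, because their IDs could not be paired with names. The animals had free access to feed and water but were left unfed on the night before slaughter, and the sources used here do not give the hour of slaughter. There was thus 1 group and no contrast between conditions, and the measurements describe how the clock genes differed between pigs.

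The mammalian clock is a transcriptional feedback loop that runs in nearly every cell, fat cells included. ARNTL and CLOCK form a heterodimer that binds E-boxes and activates the period genes (PER1, PER2, PER3), the cryptochromes (CRY1, CRY2), the nuclear receptors NR1D1 and NR1D2 (REV-ERB alpha and beta) and DBP. PER and CRY proteins then inhibit the dimer, whereas NR1D1 and NR1D2 repress ARNTL through response elements that they share with the activating ROR receptors. In peripheral tissues ARNTL therefore peaks at about the opposite time of day to NR1D1, DBP and the period genes, and CRY1 peaks late. Fasting, glucocorticoids and temperature also set or act on single members, PER1 being a well known glucocorticoid target.

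The genomic windows that the loop acts on were examined in the Sscrofa11.1 genome with the RefSeq annotation, which placed all 10 members, PER3 included. In the 250 bases before each annotated gene start, 5 motifs were searched on both strands: the E-box CACGTG, the E'-box CACGTT, the D box TTANGTAA bound by DBP, the nuclear receptor site AGGTCA shared by NR1D and ROR receptors, and the cyclic AMP element TGACGTCA. The E-box was present in 2 of the 10 members (PER1 and PER3) and in 6.4% of all 19530 windows, those of protein-coding genes placed on a chromosome. The E'-box was present in 2 members (CRY2 and NR1D1) and in 4.54% of all windows, and the D box in 1 member (PER3, with 2 matches) and in 1.7% of all windows. The receptor site was present in 3 members (CRY2, NR1D2 and DBP) and in 12.2% of all windows. The cyclic AMP element was in 0 of the 10 members and in 1.7% of all windows. The windows of ARNTL, CLOCK, PER2 and CRY1 held no match, which says only that these letters are not in that stretch. A match is a match of letters, not a shown binding site.

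5 of these windows are printed because their genes carry the values described below: PER1 and NR1D1 stood furthest below the rest in replicates 4 and 5, NR1D2 varied least on the rescaled scale defined below, and CRY2 and DBP had low values where ARNTL was highest. Capitals mark the motif matches, distances are counted from the first letter of the match as printed, and each window reads 5′ to 3′ on the gene's own strand. The PER1 window (chr12:53376724-53376973, minus strand) has its E-box 93 bases before the start. The NR1D1 window (chr12:22263299-22263548, plus strand) has an E'-box, read on the opposite strand, 32 bases before the start. The NR1D2 window (chr13:10756704-10756953, plus strand) has a receptor site 163 bases before the start. The CRY2 window, whose E'-box also reads on the opposite strand (chr2:16620381-16620630, minus strand) has an E'-box 140 bases and a receptor site 18 bases before the start, and the DBP window (chr6:53993045-53993294, minus strand) has a receptor site 41 bases before the start.
PER1: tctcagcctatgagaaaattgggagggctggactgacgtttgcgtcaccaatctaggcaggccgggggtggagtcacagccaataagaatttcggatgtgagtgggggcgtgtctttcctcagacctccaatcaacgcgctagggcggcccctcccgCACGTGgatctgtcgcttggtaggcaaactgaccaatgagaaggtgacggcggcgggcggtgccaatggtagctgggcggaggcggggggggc
NR1D1: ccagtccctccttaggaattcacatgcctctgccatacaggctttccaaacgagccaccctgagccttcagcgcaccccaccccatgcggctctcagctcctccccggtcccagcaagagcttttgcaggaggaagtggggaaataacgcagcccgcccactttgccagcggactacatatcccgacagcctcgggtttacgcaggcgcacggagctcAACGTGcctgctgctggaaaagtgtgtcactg
NR1D2: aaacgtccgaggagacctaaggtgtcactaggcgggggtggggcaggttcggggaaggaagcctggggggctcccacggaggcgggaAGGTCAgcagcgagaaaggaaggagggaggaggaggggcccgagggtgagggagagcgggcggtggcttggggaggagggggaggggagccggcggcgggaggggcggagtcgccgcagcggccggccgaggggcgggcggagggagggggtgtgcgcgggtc
CRY2: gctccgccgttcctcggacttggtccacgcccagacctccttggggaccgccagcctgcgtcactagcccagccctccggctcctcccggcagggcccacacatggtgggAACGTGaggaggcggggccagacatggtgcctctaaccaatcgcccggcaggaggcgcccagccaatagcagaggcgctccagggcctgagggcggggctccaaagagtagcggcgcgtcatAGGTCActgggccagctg
DBP: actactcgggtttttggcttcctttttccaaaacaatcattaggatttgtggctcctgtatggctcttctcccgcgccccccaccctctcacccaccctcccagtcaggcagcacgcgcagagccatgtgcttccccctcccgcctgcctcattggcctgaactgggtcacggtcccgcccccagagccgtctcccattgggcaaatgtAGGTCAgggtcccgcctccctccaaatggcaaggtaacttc

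Expression was given in TPM, a length-corrected abundance on a fixed total per library. TPM keep no read counts, so the depth behind each value is unknown and no counting interval can be given. A gene counted as detected at over 0.1 TPM. Replicates 4 and 5 stood apart from the rest in every class of gene: named nuclear genes held 3.34% and 4.73% of their TPM against 24.1 to 26.3% in the other 4, and mitochondrially encoded genes 0.209% and 0.298% against 10.8 to 21.2%. TPM were therefore also rescaled so that the 14844 named nuclear genes of each library sum to 1000000 (rescaled TPM), which multiplied replicates 4 and 5 by 29.9 and 21.1 and the others by 3.8 to 4.15. Ratios between 2 genes within a library are the same on both scales. Adipocyte markers were present throughout, the 9 of 10 with an ID summing to a rescaled TPM of 27579 and 36821 in replicates 4 and 5 and of 20205 to 35250 in the others. FABP4, a fatty acid carrier, made up most of these sums, and without it they were 7579 and 7895 in replicates 4 and 5 against 9081 to 11240. Of the 9 markers, 4 were below all other libraries in both replicates 4 and 5, the lipases LIPE (577 and 423 against 1046 to 1519) and PNPLA2 (163 and 130 against 420 to 658), the lipid droplet coat PLIN1 and the adipocyte regulator PPARG, and 1, CIDEC, was above them. Among the 12130 named nuclear genes with a mean of at least 1 rescaled TPM, 50.1% were below and 10.4% above in both replicates. Endothelial markers (6 of 7 with an ID) summed to 658 and 798 rescaled TPM in replicates 4 and 5 against 1118 to 1445, and macrophage markers (9 of 9) to 620 and 437 against 718 to 960. Lymphoid markers (9 of 9) summed to 23.9 and 28.9 against 30.3 to 63.3, with CD79B at or under 0.1 TPM in every library. Smooth muscle markers (4 of 4) summed to 451 and 436 rescaled TPM against 530 to 898, and fibroblast markers (5 of 5) to 9553 and 16780 against 14721 to 28151. Skeletal muscle markers (4 of 7) summed to 2.26 and 1.89 against 4.82 to 15.8, and keratinocyte markers (3 of 5) to 0.802 and 1.47 against 1.52 to 2.44, with KRT1 at or under 0.1 TPM everywhere. Whether these cell types take part in the values of the clock genes was not tested, and in bulk tissue fewer cells of a type and less RNA per cell cannot be told apart.

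All 9 clock genes with an ID were detected in replicates 1, 2, 3 and 6, 7 were detected in replicate 4 and 8 in replicate 5. Of all 25880 IDs, 12735 and 13294 were detected in replicates 4 and 5, against 16733 to 17089 in the other libraries. The clock gene missing from both replicates 4 and 5 was NR1D1, and DBP, at 0.0983 TPM, lay just under the threshold in replicate 4. As deposited, every clock gene was lowest in replicates 4 and 5, which follows the low share of all named nuclear genes there. The mean levels ran from 1.43 ± 1.08 TPM for DBP to 37.2 ± 22.2 TPM for NR1D2 (SD, n = 6), with a median over the 9 genes of 4.27 TPM as deposited and of 25.0 rescaled TPM. Without replicates 4 and 5 these medians were 5.83 TPM and 23.0 rescaled TPM.

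**Figure D1:**
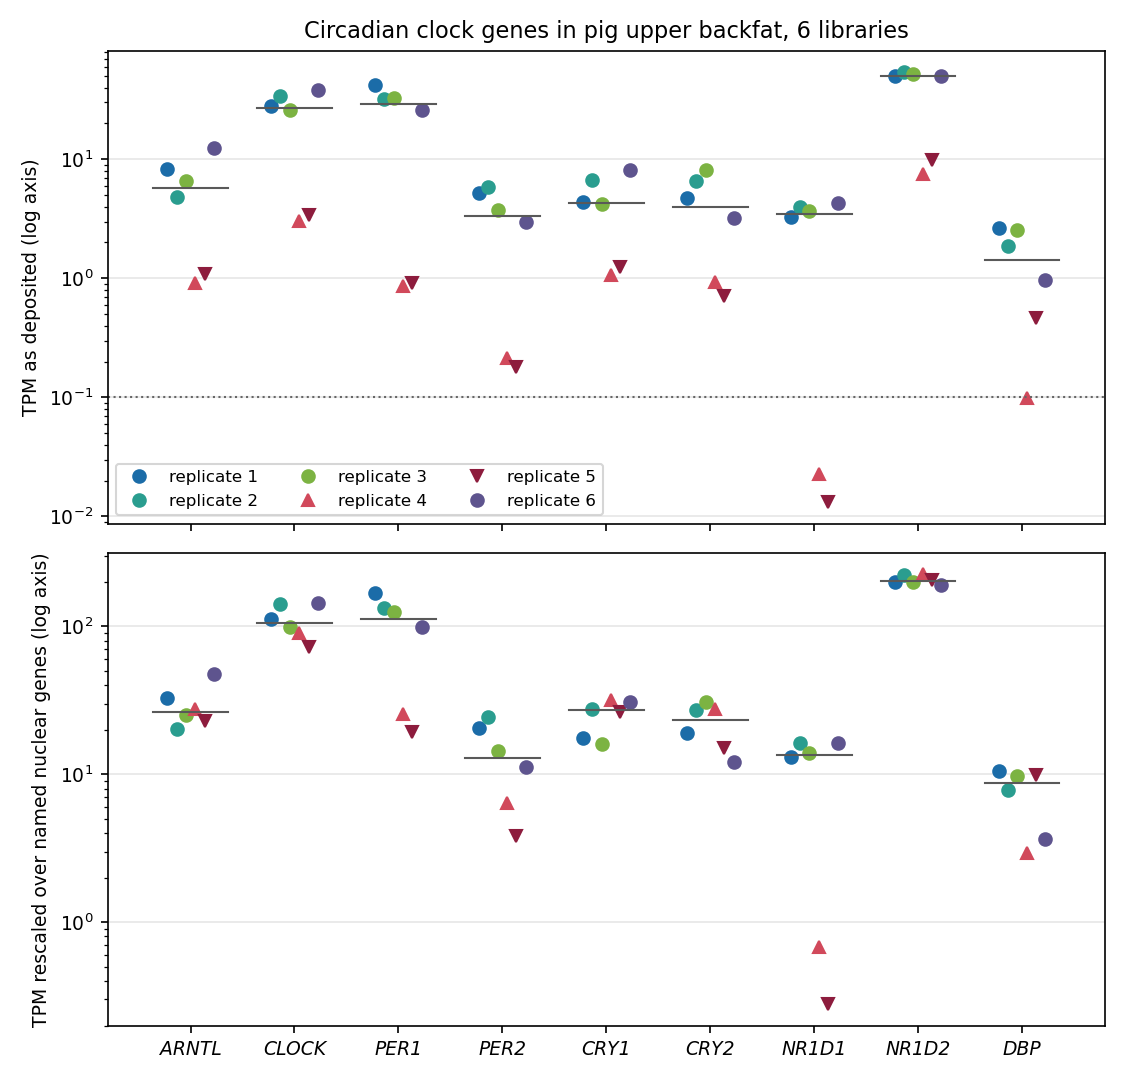
TPM of the 9 clock genes in each of the 6 pig libraries, as deposited (upper panel) and rescaled over named nuclear genes (lower panel), both on log axes. Each point is a library, the bar is the median of the 6, and the dotted line is 0.1 TPM; rescaling brings ARNTL, CRY1, CRY2 and NR1D2 of replicates 4 and 5 into the range of the others, but leaves PER1, PER2 and NR1D1 below it.

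The activators were examined first. ARNTL (ENSSSCG00000013397, chromosome 2, 45895637 to 46025174, minus strand, 20 exons), the partner without which the loop stops, had 8.24, 4.86, 6.55, 0.917, 1.08 and 12.5 TPM in replicates 1 to 6. Its rescaled TPM were 33.0, 20.1, 25.0, 27.4, 22.8 and 47.4, so that replicates 4 and 5 lay inside the range of the others and replicate 6 was the highest on both scales. CLOCK (ENSSSCG00000008909, chromosome 8, 54793323 to 54910192, minus strand, 24 exons), its partner in the dimer, had 27.9, 34.2, 25.9, 3.03, 3.41 and 37.8 TPM. On the rescaled scale it had 111.8, 142.1, 99.1, 90.6, 72.1 and 143.6, again highest in replicate 6, with replicates 4 and 5 below the lowest of the others. CLOCK exceeded ARNTL in 6 of 6 libraries, by 3.03 to 3.96-fold in 5 of them and by 7.05-fold in replicate 2, where ARNTL was lowest.

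The period genes, the rhythmic inhibitors of the dimer, were both low in replicates 4 and 5. PER1 (ENSSSCG00000017983, chromosome 12, 53361863 to 53376723, minus strand, 23 exons) had 42.3, 32.1, 32.6, 0.858, 0.916 and 26.1 TPM, or 169, 133, 125, 25.7, 19.4 and 99.0 rescaled TPM. PER2 (ENSSSCG00000016338, chromosome 15, 137793419 to 137837854, minus strand, 22 exons) had 5.17, 5.86, 3.78, 0.213, 0.181 and 2.95 TPM, or 20.7, 24.3, 14.4, 6.39, 3.83 and 11.2 rescaled TPM. The 4 other libraries did not overlap with replicates 4 and 5 for either gene, their rescaled mean being 5.84-fold higher for PER1 and 3.46-fold higher for PER2. Replicates 4 and 5 were also both below the others for 50.1% of all genes. PER2 overlapped once the trend with GC content and transcript length, described below, was removed. Among replicates 1, 2, 3 and 6, replicate 6 was the lowest for both period genes. PER1 exceeded PER2 in every library, by 4.02 to 8.84-fold.

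The cryptochromes, which inhibit the dimer directly, behaved differently from the period genes after rescaling. CRY1 (ENSSSCG00000000164, chromosome 5, 13275265 to 13429566, plus strand, 15 exons) had 4.36, 6.7, 4.19, 1.06, 1.25 and 8.07 TPM, or 17.5, 27.8, 16.0, 31.6, 26.4 and 30.6 rescaled TPM. Replicate 4 was thus its highest library and replicate 5 lay in the middle of its range. CRY2 (ENSSSCG00000013270, chromosome 2, 16587101 to 16620380, minus strand, 12 exons) had 4.76, 6.6, 8.06, 0.928, 0.715 and 3.19 TPM, or 19.0, 27.4, 30.8, 27.8, 15.1 and 12.1 rescaled TPM, with replicate 6 the lowest. The ratio of CRY1 to CRY2 was 0.918, 1.01, 0.52, 1.14, 1.75 and 2.53 in replicates 1 to 6. It was largest in replicate 6 and smallest in replicate 3, a 4.85-fold range that no scaling of a library can alter.

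The nuclear receptors NR1D1 and NR1D2, paralogs that repress ARNTL, showed the widest and the narrowest spread of the panel on the rescaled scale. NR1D1 (ENSSSCG00000036933, chromosome 12, 22263549 to 22274131, plus strand, 7 exons) had 3.29, 3.94, 3.66, 0.0226, 0.0132 and 4.28 TPM, or 13.2, 16.3, 14.0, 0.676, 0.279 and 16.2 rescaled TPM. The 4 libraries other than replicates 4 and 5 were close together (14.9 ± 1.6 rescaled TPM, SD, n = 4) and 31.3-fold above the mean of those 2. NR1D2 (ENSSSCG00000027017, chromosome 13, 10756954 to 10791219, plus strand, 8 exons) had 50.1, 53.8, 52.1, 7.52, 9.78 and 50.1 TPM, or 200.4, 223, 199, 225, 207 and 190.2 rescaled TPM. Its rescaled values spanned 1.18-fold in all, with replicates 4 and 5 inside or at the top of the range. NR1D2 was the most abundant of the 9 genes in every library.

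The ratio of NR1D2 to NR1D1 within a library put both paralogs on 1 scale. It was 15.2, 13.7, 14.2 and 11.7 in replicates 1, 2, 3 and 6 and 333 and 741 in replicates 4 and 5. The ratio thus varied little among 4 pigs (SD of its log2, 0.16) and was over an order of magnitude larger in the other two, in which NR1D1 was under 0.1 TPM. With a value so near 0, the size of that gap is poorly determined.

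DBP (ENSSSCG00000003148, chromosome 6, 53986955 to 53993044, minus strand, 3 exons), the D box activator that carries the rhythm of the loop to output genes, had 2.63, 1.88, 2.54, 0.0983, 0.468 and 0.968 TPM. Its rescaled TPM were 10.5, 7.79, 9.7, 2.94, 9.9 and 3.67. Replicates 4 and 6 were the low libraries, whereas replicate 5 lay among the high ones on that scale, although as deposited replicates 4 and 5 were its lowest. DBP was the last of the 9 genes in replicates 1, 2, 3 and 6, while NR1D1 was last in replicates 4 and 5.

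**Figure D2:**
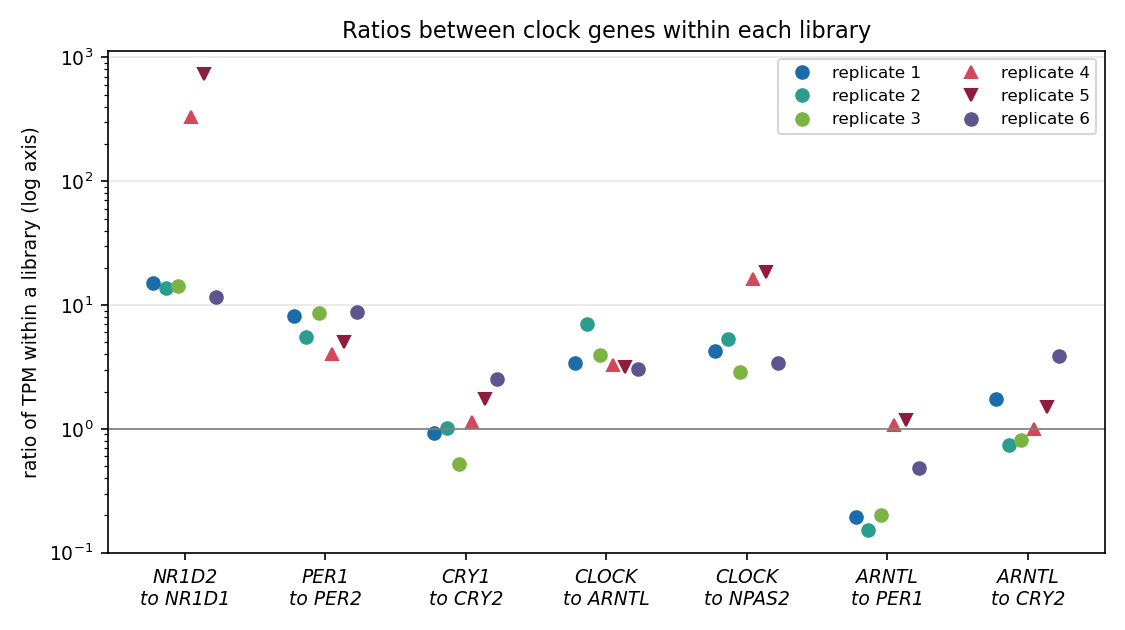
Ratio of TPM between pairs of clock genes within each of the 6 pig libraries (log axis; each point is a library and the line marks equal levels). The ratio of NR1D2 to NR1D1 is 11.7 to 15.2 in 4 libraries and 333 and 741 in replicates 4 and 5, whereas that of CLOCK to ARNTL stays between 3.03 and 7.05.

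The order of the mean rescaled levels was NR1D2 (207 ± 14.0), CLOCK (110 ± 28.6), PER1 (95.2 ± 60.6), ARNTL (29.3 ± 9.87), CRY1 (25.0 ± 6.67), CRY2 (22.0 ± 7.66), PER2 (13.5 ± 7.99), NR1D1 (10.1 ± 7.57) and DBP (7.42 ± 3.32 rescaled TPM; SD, n = 6). Of the 8 neighbours in that order, NR1D2 over CLOCK was the pair with the same direction in all 6 libraries. CLOCK exceeded PER1 in 4 of 6 and PER1 exceeded ARNTL in 4 of 6, the exceptions for the latter being replicates 4 and 5. ARNTL and CRY1 changed places in 3 of 6 libraries, CRY1 exceeded CRY2 in 4 of 6, CRY2 exceeded PER2 in 5, PER2 exceeded NR1D1 in 5 and NR1D1 exceeded DBP in 4. These neighbours are not ordered beyond their spread. As deposited, PER1 had a slightly higher mean than CLOCK (22.5 ± 17.5 against 22.1 ± 15.2 TPM; SD, n = 6), the 1 change of place between the scales. Without replicates 4 and 5, PER1 (131 ± 29.0) also stood above CLOCK (124 ± 22.2 rescaled TPM; SD, n = 4), and the other 7 genes kept their places.

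The spread between pigs was measured as the SD of log2(rescaled TPM + 1). It was 1.78 for NR1D1, 1.31 for PER1, 0.92 for PER2, 0.68 for DBP, 0.52 for CRY2, 0.43 for ARNTL, 0.41 for CRY1, 0.38 for CLOCK and 0.10 for NR1D2. An SD of at least 0.5 was reached by 5 of the 9 clock genes, against 42% of the 12130 named nuclear genes whose mean was 1 rescaled TPM or more. An SD of at least 1 was reached by 2 of the 9 (NR1D1 and PER1), against 6.97% of those genes. Without replicates 4 and 5, 3 of the 9 reached 0.5 (DBP, CRY2 and ARNTL, with an SD of 0.59, 0.57 and 0.52), against 13.5% of all genes. NR1D1 and PER1 then had an SD of 0.15 and 0.32, so their wide spread lay in the gap between replicates 4 and 5 and the rest.

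Both replicates 4 and 5 were below all 4 other libraries on the rescaled scale for 4 of the 9 clock genes: CLOCK, PER1, PER2 and NR1D1. That share was no larger than the 50.1% of all 12130 genes for which it held. Both were above the others for 0 of the 9, against 10.4% of all genes. The members differed more in the size of the gap. The mean log2 value of replicates 4 and 5 minus that of the rest was −3.44 for NR1D1, lower than all but 0.181% of genes, −2.48 for PER1 (1.41%) and −1.59 for PER2 (8.57%). It was −0.59 for CLOCK, −0.36 for DBP, −0.24 for ARNTL, −0.04 for CRY2, 0.09 for NR1D2 and 0.37 for CRY1. The median over all genes was −0.49 and that over the 9 clock genes −0.36, so that relative to the bulk of genes CRY1 and NR1D2 were among the higher ones.

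The composition of the transcripts moved with this gap. Over the 11297 genes with a RefSeq transcript, the median of the gap ran from −0.28 in the lowest of 10 equal bins by GC content (median GC 37.8%) to −0.68 in bin 7 (55.8%) and −0.53 in the highest (65.2%). NR1D2 and CRY1, with the largest values, had a GC content of 39.8% and 41.7%, whereas PER1, PER2 and NR1D1 had 63.8%, 58.2% and 56.9%. CRY2 and DBP, at 59.7% and 63.0%, were as GC-rich, with a gap of −0.04 and −0.36. Over the 9 genes r between GC content and the gap was −0.54 (Spearman's rho −0.55), given as a description over genes that share their libraries. Over all 11297 genes, which are not independent replicates, r with the gap was −0.13 for GC content and −0.29 for transcript length. The extremes of the 9 members in length ran against that direction: CRY1 had the longest transcript (9350 bases, gap 0.37) and DBP the shortest (1986 bases, gap −0.36). After the trend with GC content and length was removed from each library, the gap was −2.39 for NR1D1, −1.66 for PER1, −0.52 for PER2 and −0.16 for CLOCK, and 1.01 for CRY1 and 0.79 for CRY2. Both replicates then remained below the rest for 2 of the 9 genes, NR1D1 and PER1, against 28.7% of all genes, while PER2 and CLOCK overlapped with the other libraries. Both were then above the rest for 2 of the 9, CRY1 and NR1D2 (gap 0.45), against 23% of all genes. NR1D1 kept the largest SD of the 9 on that scale (1.24), whereas CLOCK (0.18) varied less than NR1D2 (0.24).

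**Figure D3:**
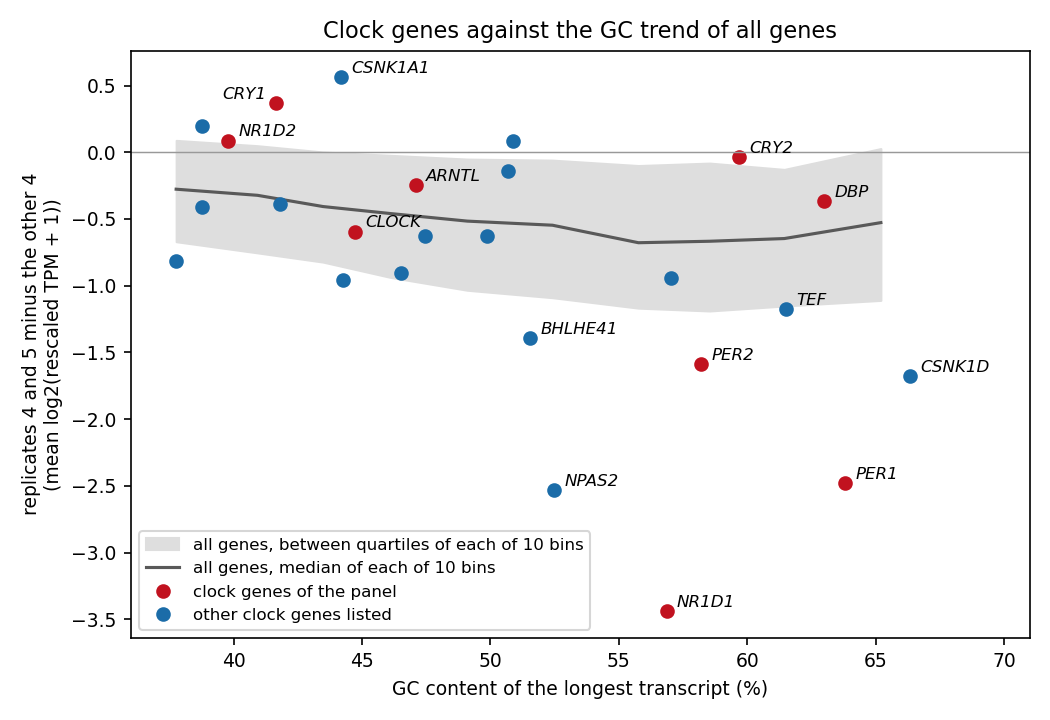
GC content of the longest transcript (horizontal) against the mean log2(rescaled TPM + 1) of replicates 4 and 5 minus that of the other 4 libraries (vertical), for the 9 clock genes and 16 other clock genes with a GC content. The line is the median and the band the range between quartiles of all genes in each of 10 bins by GC content. NR1D1 (−3.44), NPAS2 (−2.53) and PER1 (−2.48) lie furthest under the band, and PER2 (−1.59) and CSNK1D (−1.68) are among the others under it. CRY1 (0.37) and CSNK1A1 (0.56) are among the genes above it.

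Some members share their place in the genome with other genes. NR1D1 overlaps THRA on the opposite strand over 3626 bases, CLOCK overlaps TMEM165 on the opposite strand over 3030 bases, and CRY1 overlaps TMEM263 on the opposite strand, MTERF2 on the same strand over 2399 bases, and a pair of pseudogenes. The libraries were stranded, but whether strand was used in quantification is not stated, so these 3 genes are less certain. THRA had 33.1, 33.8, 29.5, 18.2, 12.7 and 39.2 rescaled TPM in replicates 1 to 6, which is also lowest in replicates 4 and 5. TMEM263 had 55.2, 59.5, 57.7, 74.2, 79.1 and 49.8, highest in replicates 4 and 5. MTERF2 had 21.9, 25.9, 20.8, 17.4, 13.9 and 24.1, lowest there.

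Whether the arms of the loop moved oppositely was examined next. For each library the deviation of every gene from its own median was averaged over the 2 activators (ARNTL and CLOCK) and over the 6 repressors with a value (PER1, PER2, CRY1, CRY2, NR1D1 and NR1D2). The activators deviated by 0.20, 0.03, −0.08, −0.07, −0.36 and 0.64 in replicates 1 to 6, and the repressors by 0.06, 0.30, 0.0052, −0.91, −1.34 and −0.15 (log2). The arms thus had opposite signs in 2 of 6 libraries, replicates 3 and 6, of which replicate 3 deviated by under 0.1 in both arms. In replicates 1 and 2 both arms were above 0, and in replicates 4 and 5 both were below. The genes of an arm did not move together there. In replicate 4, PER1 (−2.07), PER2 (−0.89) and NR1D1 (−3.12, under the detection threshold) were below their medians. CRY1 (0.21), CRY2 (0.27) and NR1D2 (0.14) were above theirs, as was ARNTL (0.06) but not CLOCK (−0.21). In replicate 5, CRY1 (−0.04) and NR1D2 (0.02) lay near their medians, whereas CRY2 (−0.57) was below. Replicate 6 was the 1 library with a sizeable opposition. The count moved with the scaling: it was 0 of 6 as deposited, 1 of 6 without ribosomal protein genes, and 4 of 6 with median-centring, with quantile normalization or after removal of the GC and length trend. With the medians taken over replicates 1, 2, 3 and 6 alone it was 3 of 4 (replicates 1, 2 and 6), of which replicate 1 deviated by under 0.1 in both arms.

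**Figure D4:**
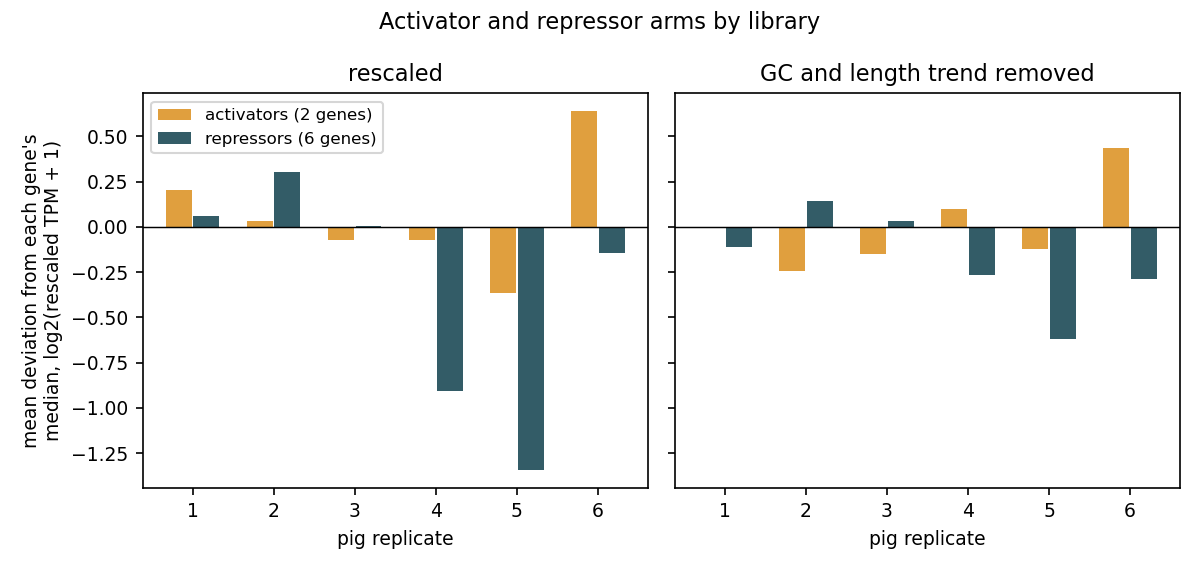
Mean deviation from each gene's median over the 6 libraries, in log2(rescaled TPM + 1), for the 2 activators and the 6 repressors of the panel, rescaled (left) and after removal of the GC and length trend (right). Bars start at 0; the activators stand highest in replicate 6 (0.64 rescaled) and the repressors lowest in replicate 5 (−1.34), and the signs are opposite in 2 libraries on the left and 4 on the right.

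Sorting by known phase gave a similar picture. The 5 genes that peak with or near ARNTL (ARNTL, CLOCK, NPAS2, NFIL3 and CRY1) deviated by −0.0049, 0.05, −0.26, −0.45, −0.63 and 0.39, and the 10 genes of the opposite phase with a value (PER1, PER2, NR1D1, NR1D2, DBP, TEF, HLF, CIART, BHLHE41 and CRY2) by 0.30, 0.25, 0.17, −0.90, −1.16 and −0.25. Signs were opposite in 3 of 6 libraries (replicates 1, 3 and 6), the first of these with a deviation near 0. Over replicates 1, 2, 3 and 6 alone signs were opposite in 4 of 4, with the ARNTL phase above 0 in replicate 6 (0.34 against −0.41) and below 0 in the others. In those others 1 group was near 0: the ARNTL phase in replicates 1 and 2 (−0.06 and −0.01) and the opposite phase in replicate 3 (0.02).

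Replicate 6 was then compared with replicates 1, 2 and 3 alone, a comparison chosen after its values were seen. The sample code of replicate 6 in the labels begins its animal part with CC and those of the other 5 with BC. The meaning of these letters is not explained there, and their part in the values was not tested. Replicate 6 was the lowest of these 4 libraries for 5 of the 9 clock genes (PER1, PER2, CRY2, NR1D2 and DBP), against 14.4% of all genes. It was the highest for 3 of the 9 (ARNTL, CLOCK and CRY1), against 25% of all genes. NR1D1, the direct repressor of ARNTL, stood outside both sets, being second highest in replicate 6. The count of lowest genes was also 5 with median-centring, with quantile normalization and after removal of the GC and length trend. On those scales 18.1 to 19.9% of all genes were lowest. As deposited the count was 4, against 11% of all genes. The margin was small for NR1D2, 190.2 rescaled TPM against 199 to 223, and for CLOCK, 143.6 against 142.1 in replicate 2. Of 19 other clock genes with a value, replicate 6 was the highest for 4 (NPAS2, CSNK1A1, TIMELESS and TIPIN) and the lowest for 7 (ARNTL2, RORA, RORB, BHLHE40, BHLHE41, TEF and USP2). Thus 3 of the 4 other activators were lowest in the library in which ARNTL, CLOCK and NPAS2 were highest. For RORA the margin was small, 60.4 rescaled TPM against 61.2 to 72.9, and RORB, at 0.0818 TPM in replicate 6, was under the detection threshold. With a single library there is no error for this pattern.

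Correlations with ARNTL over the 6 libraries were computed from log2(rescaled TPM + 1) for every gene and tested by an exact two-sided permutation test over all 720 orders, in which the smallest p is 0.00139. For CLOCK, PER1, PER2 and NR1D1 both replicates 4 and 5 lay below the other libraries. Their r, 0.40, 0.23, 0.03 and 0.31 in that order, is therefore not read as a relation. For NR1D2 r with ARNTL was −0.70 (exact p = 0.125, adjusted p = 0.973, rho −0.54 with exact p = 0.297). For CRY2 it was −0.65 (exact p = 0.164, adjusted p = 0.973, rho −0.37 with exact p = 0.497), and for DBP −0.47 (exact p = 0.367, adjusted p = 0.973, rho −0.14 with exact p = 0.803). For CRY1 it was 0.11 (exact p = 0.853, adjusted p = 0.979, rho 0.20 with exact p = 0.714). Adjustment was by Benjamini-Hochberg over 12129 genes, and every adjusted p of rho was 1. An r under −0.5 was reached by 2 of the 8 members other than ARNTL, against 5.67% of all genes. Without replicates 2 and 6, the libraries farthest from the median of ARNTL, r was −0.06 for NR1D2, 0.07 for CRY2, −0.04 for DBP and −0.30 for CRY1, so the negative relations rested on those libraries. 0 of all genes passed an adjusted p of 0.05, and 284 had an unadjusted exact p under 0.05 by r and 210 by rho.

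The genes with the pattern most like each of 3 members were named by Pearson's r over the 6 libraries, among genes whose mean was 10 rescaled TPM or more and whose SD was at least 0.5 (3324 for ARNTL and 3323 for NR1D1 and PER1), as a description. The highest r with ARNTL were those of TGIF1 (0.94), MCTP2 (0.93), FBXO32 (0.91), MT1X (0.90) and VEGFD (0.89), and the lowest those of VTN (−0.98), APOC3 (−0.97), SPP1 (−0.95), GC (−0.94) and C3 (−0.93). FBXO32 had 144, 38.6, 90.5, 87.0, 57.9 and 162 rescaled TPM in replicates 1 to 6, and VTN had 19.5, 39.0, 26.8, 29.4, 34.6 and 8.45, which put replicate 6 at the top and at the bottom. For NR1D1 the highest were INO80D, SRCAP, UBAP2L, SP110 and EMD, each at 0.999, and the lowest TMEM258, ADH5, NDUFS4, CHCHD2 and PSMB4. For PER1 the highest were TSGA10, SESN3, BRD2, RIN3 and ZNF618, and the lowest SLIRP, SMIM26, ANXA1, PSMA2 and HIGD1A. The genes of the last 2 sets divide replicates 4 and 5 from the rest, as SRCAP did with 7.55 and 5.42 rescaled TPM there against 43.9 to 52.5.

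The other activators of the loop included the largest gap of the other clock genes listed. NPAS2, a paralog of CLOCK that also pairs with ARNTL, had 26.3, 26.7, 34.4, 5.57, 3.9 and 42.0 rescaled TPM in replicates 1 to 6, with a gap of −2.53 and a GC content of 52.5%. The ratio of CLOCK to NPAS2 was 2.88 to 5.31 in 4 libraries and 16.3 and 18.5 in replicates 4 and 5. After removal of the GC and length trend the NPAS2 gap was −1.79, with both replicates still below the rest. ARNTL2, the paralog of ARNTL, had 113 to 212 rescaled TPM, more than ARNTL in every library, and a gap of 0.20. The ROR receptors, which activate ARNTL, were represented by RORA and RORB, with mean rescaled levels of 59.0 and 0.69, both lowest in replicates 4 and 5 by a gap of −0.39 and −0.55, which is close to the median of all genes.

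Of the 4 other repressors, BHLHE41 (DEC2) was lowest in both replicates 4 and 5, with 27.1, 38.5, 27.3, 12.2, 7.82 and 19.2 rescaled TPM. CIART, BHLHE40 (DEC1) and NFIL3, the D box repressor, overlapped between the sets, and their rescaled means were 34.0, 42.9 and 103. Both D box activators beside DBP were lowest there, TEF with 101, 98.3, 103, 43.3, 36.4 and 67.1 and HLF with 70.2, 34.5, 50.7, 30.9, 19.4 and 45.3 rescaled TPM. For all genes the share lowest in both was 50.1%, and after removal of the GC and length trend TEF and HLF overlapped with the other libraries. The ratio of NFIL3 to DBP, repressor over activator of the same sites, was 6.56 to 15.3 in replicates 1, 2, 3 and 5 and 31.2 and 27.2 in replicates 4 and 6.

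The enzymes that set the stability of PER and CRY proteins were split. Of the 7 with a value, 6 were lowest in replicates 4 and 5 (CSNK1D, CSNK1E, GSK3B, BTRC, FBXW11 and USP2) and 1, CSNK1A1, was highest there, against 50.1% and 10.4% of all genes. After removal of the GC and length trend both replicates remained below the rest for 3 of these 6 (CSNK1D, GSK3B and BTRC), not for FBXW11 and USP2, and CSNK1E had no GC content. CSNK1D, the kinase that marks PER for degradation, had 37.6, 28.1, 27.8, 9.3, 8.78 and 32.0 rescaled TPM and a GC content of 66.3%. CSNK1A1 had 194, 218, 217, 348, 291 and 235, with a GC content of 44.2%. The 2 genes TIMELESS and TIPIN had means of 2.74 and 21.4 rescaled TPM, of which TIMELESS was lowest in replicates 4 and 5.

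**Figure D5:**
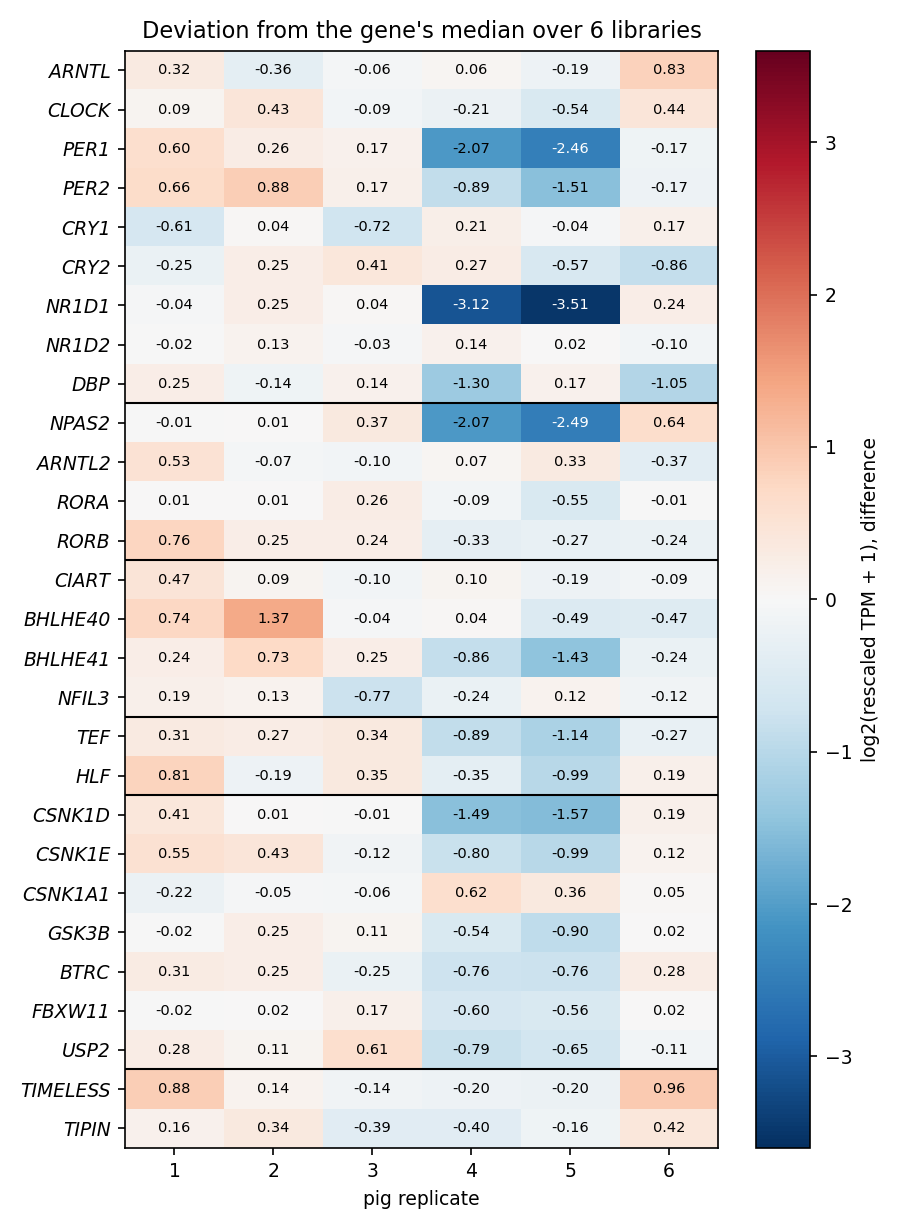
Deviation of each gene from its own median over the 6 libraries, in log2(rescaled TPM + 1), for the 9 clock genes (top block) and, in blocks below, other activators, other repressors, D box activators, kinases and ligases, and TIMELESS with TIPIN. Columns are pig replicates; NR1D1 (−3.12 and −3.51), PER1, NPAS2 and CSNK1D are the darkest in replicates 4 and 5, whereas NR1D2 stays within 0.14 throughout.

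The counts that follow are to be read against the 50.1% of all genes that were lowest, and the 10.4% that were highest, in both replicates 4 and 5. Among 6 outputs of the clock, 1 was lowest in both replicates 4 and 5, PPARGC1A at a mean of 0.653 rescaled TPM. The others, which included NAMPT (146 to 384 rescaled TPM), an enzyme of NAD synthesis, and KLF15 (39.1 to 84.7), overlapped between the sets. Of 5 glucocorticoid-responsive genes with a value, ZBTB16 was lowest there (75.5 and 62.8 against 106 to 222 rescaled TPM), KLF9 was highest (432 and 336 against 112 to 306), and FKBP5, ERRFI1 and SGK1 overlapped. Whether glucocorticoids take part in the low PER1 of replicates 4 and 5 was not tested. Of 8 immediate early genes, whose RNA is short-lived, EGR1 (29.3 and 41.6 against 171 to 406 rescaled TPM), NR4A1 (9.85 and 14.7 against 39.2 to 217) and JUN were lowest there, and JUNB and IER2 highest. Of 5 fasting-responsive genes, ANGPTL4 and CPT1A were lowest there, while PDK4 (528 to 1788 rescaled TPM), TXNIP and G0S2 overlapped. The median gap was −0.30 for the outputs, −0.22 for the glucocorticoid-responsive, −0.42 for the immediate early and −0.04 for the fasting-responsive genes, against −0.49 over all genes.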

How the data were processed

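The authors depleted ribosomal RNA, built stranded libraries, sequenced them on an Illumina platform and deposited TPM per gene, computed with Kallisto (version 0.43.0). The pig genome in the submitters' processing notes is Sscrofa11.1, which is that of the annotation used here. No deposited value was changed before rescaling. Symbols were matched by Ensembl ID, and RefSeq coordinates by symbol. The analysis used Python 3.11.15, numpy 2.4.6, pandas 2.3.3, scipy 1.17.1, pysam 0.24.0 and matplotlib 3.10.9.

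Log values are log2(TPM + 1). Spread, correlations and percentiles were computed over the 12130 named nuclear genes whose mean was 1 rescaled TPM or more. GC content and length are those of the longest RefSeq transcript, found for 93.1% of these genes, and their trend was removed by subtracting, in each library, the median of 10 by 10 bins, a step chosen, like the within-library ratios, once the values were known. The correlation and trend steps were tested on simulated data. Replicates are numbered as in the labels, whose sample codes carry BC in replicates 1 to 5 and CC in replicate 6, unexplained. Nothing says what else they share. The exact p-values give the share of the 720 orders in which r or rho was at least as large in size. They take the libraries as independent of one another.

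The members and all lists were chosen with earlier results of these data known. Genes named are all members, the other clock lists by count with their extremes, and the 5 highest and 5 lowest r with ARNTL, NR1D1 and PER1. Some genes of the lists are not reported here.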

Additional observations from a re-analysis of the deposited data

Results flagged for a closer look

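In replicate 2 the log2 ratio of CLOCK to ARNTL was 2.82, far from the other 5 libraries, which lay between 1.6 and 1.99. The gap to the nearest library was 0.683 of the whole range, above the critical value of 0.625 for 6 values. The ratio combines the lowest ARNTL of the 6 libraries with the second highest CLOCK (20.1 and 142 rescaled TPM). A library this far from the others was found in 1 of 32 sets of 6 values examined, and chance gives about 1 in 20.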

How the results depend on the processing

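No paired analysis was possible because the 6 pig libraries form 1 group, and the replicate numbers they share with the rat libraries join different animals and a separately normalized table that was not compared. TPM keep no depth, so the precision of a value rests on the spread between libraries.

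The median level of the 9 clock genes, 4.27 TPM as deposited, was 25.0 when rescaled, 25.9 with median-centring, 25.7 with quantile normalization and 27.4 without ribosomal protein genes. Leaving out each replicate in turn gave 3.79 to 4.92 TPM, and leaving out replicates 4 and 5 gave 5.83. The number of clock genes with an SD of at least 0.5 was 5 when rescaled, where 42% of all genes reached it. It was 9 as deposited (87.4% of all genes), 6 with median-centring (32.5%) and 6 with quantile normalization (30.2%). With the GC and length trend removed it was 5 (27.8%), and without replicates 4 and 5 it was 3 (13.5%). Without any single replicate it was 4 or 5, for which no share over all genes was computed.

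The r of ARNTL with NR1D2, −0.70, was 0.93 as deposited and 0.18 with median-centring. It was −0.13 with quantile normalization and −0.14 with the GC and length trend removed, and NR1D2 had an SD of only 0.10 when rescaled. The r with CRY2, −0.65, was 0.76 as deposited and −0.47 to −0.34 over the other 3 of these settings. It was 0.073 without replicates 2 and 6 (the libraries farthest from the median of ARNTL). The r with DBP, −0.47, was 0.74 as deposited and −0.62 to −0.39 over those 3 settings. The r with CRY1, 0.11, was −0.30 without replicates 2 and 6. As deposited, replicates 4 and 5 are low in all members at once. Leaving out each replicate in turn gave −0.85 to −0.42 for NR1D2, −0.92 to −0.16 for CRY2, −0.70 to −0.05 for DBP and −0.44 to 0.31 for CRY1, the last being negative without replicate 3 (−0.03) and without replicate 6 (−0.44). A pseudocount of 0.1 turned no sign. Without a filter on low values, 0 of 14248 genes had an adjusted p under 0.05 with ARNTL, the smallest being 0.985, and 353 had an unadjusted exact p under 0.05.

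Activator and repressor arms had opposite signs in 2 of 6 libraries when rescaled, in 0 as deposited, in 1 without ribosomal protein genes, and in 4 with median-centring, quantile normalization or the GC and length trend removed. Leaving out each replicate in turn gave 1 to 3 libraries, and leaving out replicates 4 and 5 gave 3 of 4. For the phase groups the count was 3 when rescaled, 1 as deposited, 4 with median-centring, with quantile normalization or the trend removed, and 1 to 3 without any single replicate, the 1 being without replicate 6. Without replicates 4 and 5 it was 4 of 4, with 1 group near 0 in each of replicates 1, 2 and 3. The causes were not tested.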
